A study of Gallus gallus with 6 samples.

Results

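The genes described here build and feed the DNA replication fork or control entry into S phase in the chick auditory epithelium. They were chosen by name from a list of 34 symbols covering replication licensing, helicase, polymerase, nucleotide synthesis and E2F genes. Of these, 33 named a row of the gene table, out of 25619 rows in all, and each named a single row. MCM7 was not analysed here under its own name.

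Bulk RNA-seq gave 6 libraries of the basilar papilla, the hearing epithelium of birds, from chicks (Gallus gallus) at post-hatch day 1. Cochlear ducts were cultured as explants (DMEM, 1% serum, 5% CO2, 37 °C), and all of them were exposed to streptomycin (SM), an antibiotic toxic to hair cells, for 48 h. The explants labelled day 3 gave 3 libraries with SM plus BQ788, an antagonist of EDNRB, the type B receptor for endothelin peptides, and 3 SM controls without it. The comparison asks what blocking this receptor changed in gene expression after SM. Neither the dose of BQ788 nor the number of ducts pooled per library is stated in the labels. No library came from explants without SM. The labels do not say whether each replicate is its own animal or culture. The p-values therefore cover the spread between these samples alone, which may be technical.

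Before a cell divides it copies its genome in S phase. In G1 the origin recognition complex, CDC6 and CDT1 load the ring-shaped MCM helicase onto DNA, and CDC45 and the GINS complex later switch it on. Cyclin E with CDK2 releases E2F factors from the RB protein, and E2F then drives transcription of most of the genes named here. In birds, unlike mammals, supporting cells of the damaged auditory epithelium can return to the cell cycle or turn directly into hair cells.

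Levels are FPKM, reads scaled by the authors for gene length and a total per library. Reads recovered from them came to 16369723 to 17070306 per BQ788 library and 15438305 to 17375656 per control. The totals implied by the FPKM values were 1.061, 0.992 and 0.948 times these reads in BQ788 replicates 1 to 3. In SM control replicates 1 to 3 they were 1.021, 1.017 and 0.982 times these reads. The authors' scaling thus differed from plain totals of recovered reads. Markers of the labelled tissue were present, with 12 of 12 supporting cell genes and 10 of 13 hair cell genes at a mean of at least 1 FPKM. Their summed levels were 3017 to 4237 FPKM with BQ788 and 3823 to 4778 FPKM in controls for supporting cells, and 346.2 to 360.4 FPKM with BQ788 and 390.0 to 420.0 FPKM in controls for hair cells. ATOH1 was the largest part of the hair cell sum in every library, and its own groups overlapped. It was at 134.3 to 176.4 FPKM with BQ788 and 158.0 to 163.1 FPKM in controls. Of 13 hair cell markers, 2 had a higher mean with BQ788. In bulk samples fewer cells of a type and less RNA per cell cannot be told apart. Sums of other cell types' markers lay lower in every BQ788 library for cartilage (136.5 to 165.3 with BQ788 against 253.1 to 296.2 FPKM in controls, 8 of 9 markers with a row). That sum rests on collagen genes, while ACAN reached at most 0.446 FPKM and MATN1 at most 0.0196 FPKM. The cell types that made these collagens were not tested. Melanocyte sums were lower too (4.31 to 6.81 with BQ788 against 13.3 to 13.6 FPKM in controls). Of 7 melanocyte markers, 1, MITF, had a higher mean with BQ788, and the difference rests on SLC45A2 and MLANA. Marker sums were also lower for endothelium (25.2 to 31.5 with BQ788 against 33.97 to 37.3 FPKM in controls). There 6 of 8 markers had a higher mean with BQ788, and the sum rests on EGFL7 and PECAM1. Sums for Schwann cells and neurons were lower as well (146.4 to 178.2 with BQ788 against 182.2 to 193.3 FPKM in controls), where 5 of 12 markers had a higher mean. Sums overlapped for fibroblasts (177.6 to 380.1 with BQ788 and 285.9 to 345.6 FPKM in controls, 13 of 13 markers with a row) and leukocytes (65.1 to 74.2 with BQ788 and 63.0 to 79.8 FPKM in controls, 10 of 10 with a row). COL1A1, COL1A2 and COL5A1 were the largest parts of the fibroblast sum. Of 13 fibroblast markers, 6 had a higher mean with BQ788. POSTN was lower in every BQ788 library (5.48 to 6.76 with BQ788 against 29.9 to 32.8 FPKM in controls). CD74 was the largest part of the leukocyte sum in every library. Erythroid markers summed to at most 0.466 FPKM with BQ788 and 1.03 FPKM in controls, with HBE, HBE1, HBZ and HBAD listed at 0. The part of these cells in the results below was not tested.

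Reads were counted for all 33 genes in every library, but most genes were at low levels. PCNA, the ring that tethers polymerases to DNA, was the most abundant at a mean of 65.7 FPKM over the 6 libraries, above 92.9% of all genes tested. RRM1, the large subunit of ribonucleotide reductase, followed at 39.7 FPKM. MCM6, RFC4, RRM2 and CDK2 lay between 11.9 and 14.9 FPKM. A further 7 genes averaged 5 to 10 FPKM, 15 averaged 1 to 5 FPKM and 5 were under 1 FPKM. Those 5, MCM10, GINS1, ORC1, CDC6 and CCNE2, were too low for the test, which required a mean of 1 FPKM or more, so 28 members were tested. CDC45 and GINS2 passed this minimum only through the BQ788 libraries, since their control means were under 1 FPKM. Around the limit, DTL was just inside at 1.04 FPKM and GINS1 just outside at 0.991 FPKM.

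**Figure D1:**
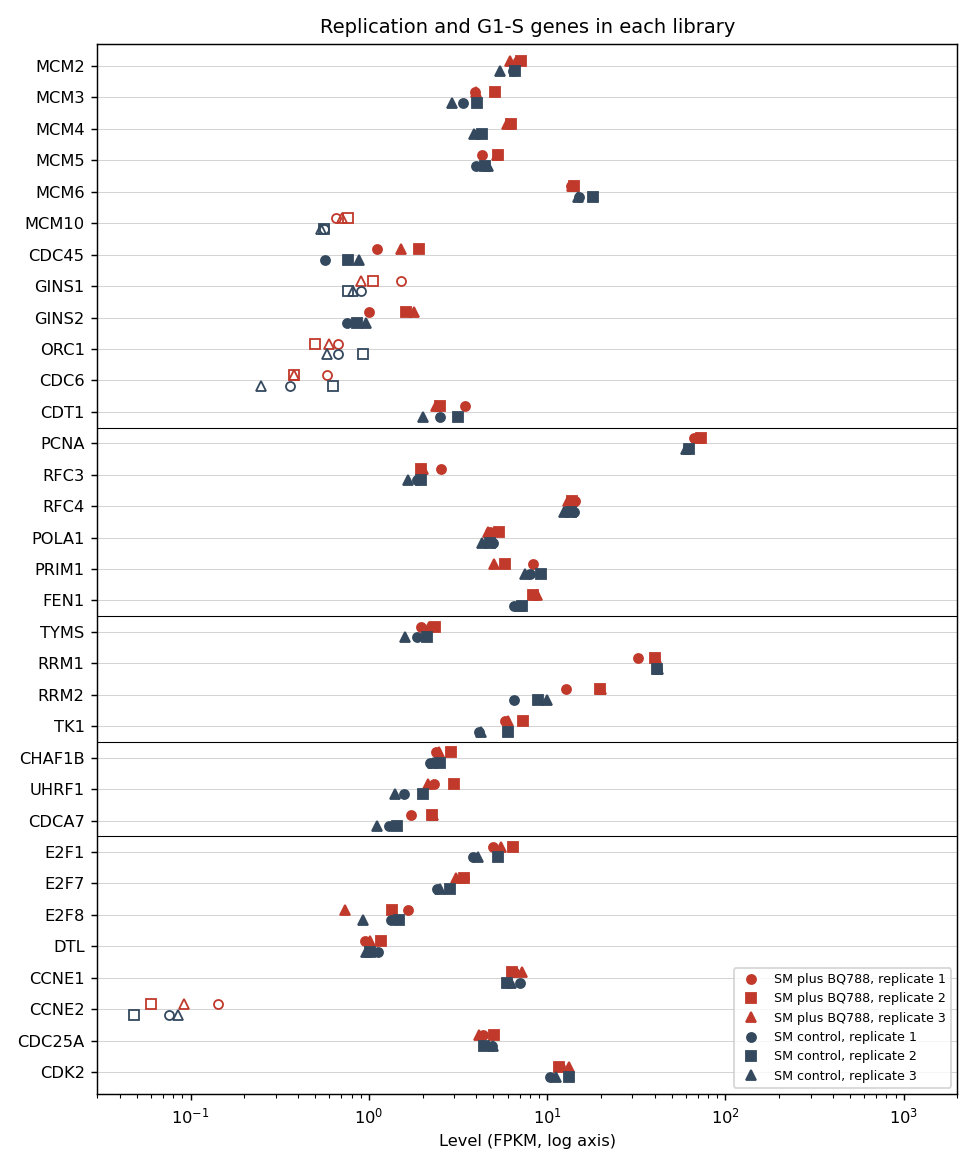
Levels of the 33 genes in FPKM on a log axis, with SM plus BQ788 libraries in red above SM controls in dark blue for each gene, a symbol per replicate and open symbols for the 5 genes too low to test. The groups separate for MCM4, PCNA and FEN1, while RFC4, CCNE1 and CDK2 overlap.

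Group means of the members were mostly higher with BQ788 than in controls, but MCM4 was the only member that rose past the threshold. Group means were higher with BQ788 for 28 of 33 members, by at most 2.07-fold (RRM2), and lower for 5, down to 0.772-fold (PRIM1). Of the 28 tested members, 23 had a log2 fold change above 0, CDC45 and GINS2 among them, against 53.5% of all genes tested. In limma across 11857 genes, 1 of 28 members passed an adjusted p of 0.05, against 0.751% of all genes called higher, 2.24% called lower and 2.99% called in either direction. At an unadjusted p of 0.05, 10 members were higher and 0 lower, where all genes gave 10.8% higher and 11.9% lower, or 22.7% in either direction. By limma voom on recovered reads 0 members passed, against 2.02% of all genes. Without CDC45 and GINS2, which entered the test through the BQ788 libraries alone, 8 of 26 were higher and 0 lower. The groups did not overlap in 10 tested members that were higher with BQ788 and 2 that were lower, where all genes gave 15.2% and 14.1%, or 29.3% in either direction. Without the same pair they were separated in 8 higher and 2 lower members. The median log2 fold change was 0.14 over the 28 and 0.02 over all genes tested, both on the log2(FPKM + 1) scale, which understates changes of low genes. Over the 26 members without CDC45 and GINS2 the median was 0.13.

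**Figure D2:**
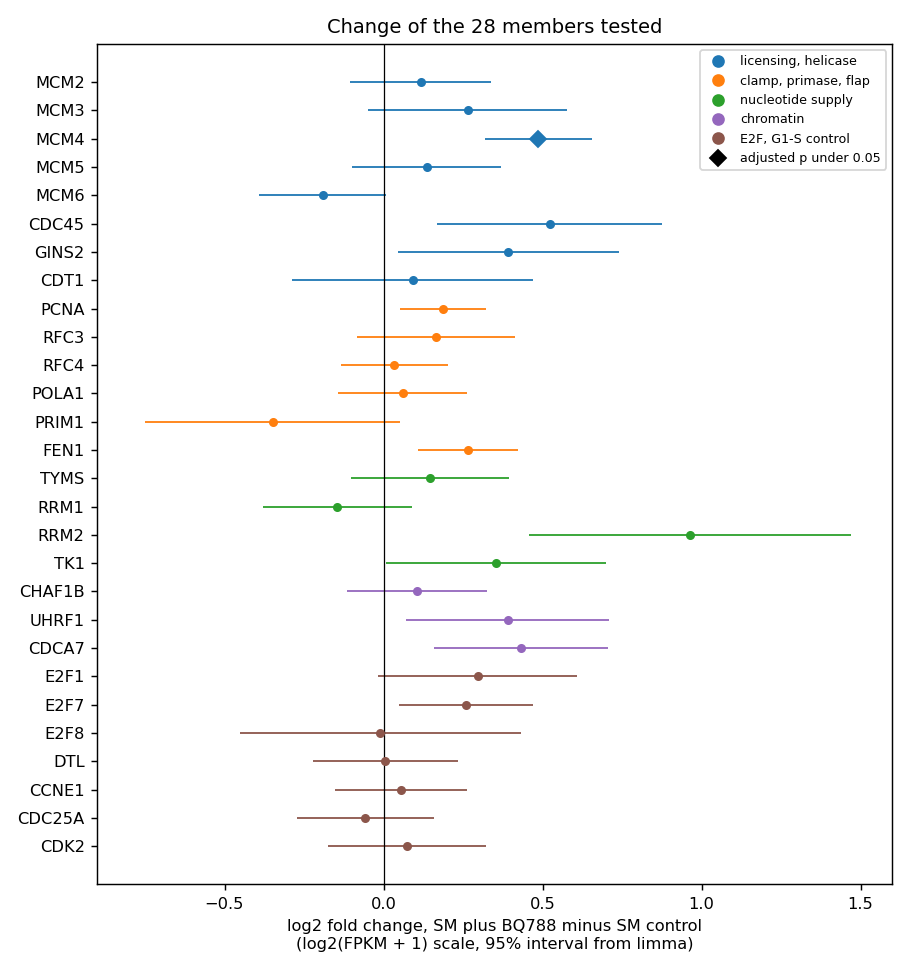
Differences in log2(FPKM + 1) between SM plus BQ788 and SM control for the 28 tested genes, with 95% intervals from limma and colours for the roles. Only MCM4, drawn as a diamond, had an adjusted p under 0.05. RRM2 has the highest estimate and PRIM1 the lowest.

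The replicative helicase is a ring of 6 related MCM subunits. MCM4 (chromosome 2, 107671147 to 107683231, GRCg7b, here and below) was at 6.22, 6.25 and 5.95 FPKM with BQ788 and at 4.10, 4.33 and 3.87 FPKM in controls. All 3 BQ788 libraries lay above every control, and the replicates within a group differed little. It rose 1.497-fold between group means, and its log2 fold change was 0.49 with an SE of 0.07 (limma adjusted p = 0.0327). The call was lost when any library but BQ788 replicate 1 was left out. The limma adjusted p was 0.143 without BQ788 replicate 2, 0.0863 without BQ788 replicate 3, and 0.123, 0.135 and 0.115 without SM control replicates 1, 2 and 3. It was 0.0278 without BQ788 replicate 1 and 0.0535 by limma voom. The log2 fold change itself stayed between 0.45 and 0.52 with each library left out, and in the fits without BQ788 replicate 2 or any 1 control only 1 of all 11857 genes passed.

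The other subunits of the ring did not pass. MCM2 (chromosome 12, 9920513 to 9931857) was at 6.88, 7.14 and 6.22 FPKM with BQ788 and at 6.40, 6.62 and 5.44 FPKM in controls. Its groups overlapped, and its log2 fold change of 0.12 had a 95% interval from -0.10 to 0.34. MCM3 averaged 4.34 ± 0.665 FPKM with BQ788 and 3.45 ± 0.561 FPKM in controls (SD over 3 libraries, as for all such values), and MCM5 averaged 4.92 ± 0.551 with BQ788 and 4.38 ± 0.341 FPKM in controls. Both had overlapping groups. MCM6 (chromosome 7, 30285187 to 30298527) went the other way, at 13.6, 14.1 and 13.8 FPKM with BQ788 and 15.1, 18.0 and 15.0 FPKM in controls. Every BQ788 library was below every control, with control replicate 2 standing highest (log2 fold change -0.19, limma adjusted p = 0.234). A row named LOC121108911, described in the table as MCM7-like, was looked up after the values were seen. It was at 11.6, 10.3 and 11.2 FPKM with BQ788 and 9.58, 12.2 and 9.43 FPKM in controls, with overlapping groups (limma adjusted p = 0.696). Its annotated length of 641 bases covers only part of an MCM protein gene, and no chromosome is assigned to it.

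MCM6 transcripts stood above those of MCM2, MCM3, MCM4 and MCM5 per length in all 6 libraries. Ratios to MCM6 within a library do not depend on library scaling. They were computed after the values were seen. MCM4 over MCM6 was 0.458, 0.442 and 0.430 with BQ788 and 0.271, 0.240 and 0.259 in controls. Its groups could not overlap, as every BQ788 library was above the controls for MCM4 and below them for MCM6. MCM3 over MCM6 averaged 0.313 ± 0.0420 with BQ788 and 0.214 ± 0.0165 in controls, MCM2 over MCM6 averaged 0.487 ± 0.0325 with BQ788 and 0.385 ± 0.0336 in controls, and MCM5 over MCM6 averaged 0.355 ± 0.0341 with BQ788 and 0.275 ± 0.0329 in controls. MCM6 was taken as the denominator after it was seen to be lower in every BQ788 library, and MCM2, MCM3 and MCM5 overlap on their own. The separation of the MCM2, MCM3 and MCM5 ratios therefore restates in part the MCM6 values. All 4 ratios are given as a description, with no test. In all, 7 such ratios were computed. CDC45 over MCM6 averaged 0.109 ± 0.0274 with BQ788 and 0.0463 ± 0.0109 in controls. Its groups could not overlap, as every BQ788 library was above the controls for CDC45 and below them for MCM6. POLA1 over PRIM1 overlapped.

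CDC45 and the GINS complex join the MCM ring to make the active helicase. CDC45 (chromosome 15, 693643 to 706012) was at 1.105, 1.92 and 1.51 FPKM with BQ788 and 0.571, 0.766 and 0.876 FPKM in controls. The BQ788 libraries were higher throughout but spread widely, and the gene held only 32 to 103 reads per library. The ratio of means was 2.05, and the log2 fold change of 0.52 (SE 0.15) had a limma adjusted p of 0.108. It was 0.0390 without BQ788 replicate 1 and 0.187 to 0.289 with any other library left out. GINS2 (chromosome 11, 17273993 to 17282575) was at 1.00, 1.61 and 1.78 FPKM with BQ788 and 0.757, 0.856 and 0.970 FPKM in controls. It too was higher in all 3 BQ788 libraries (log2 fold change 0.39, SE 0.15, limma adjusted p = 0.178, 0.0378 without BQ788 replicate 1 and 0.271 to 0.415 with any other library left out). GINS1 had 12 to 27 reads and overlapping groups, at 1.51, 1.06 and 0.898 FPKM with BQ788 and 0.898, 0.761 and 0.815 FPKM in controls. It lies over NINL on the opposite strand for 1388 bases, and the library kit is not stated to mark strand, so reads of the pair may be mixed.

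Licensing factors that load the ring showed no common direction. CDT1, which brings the MCM ring to origins, was at 3.46, 2.52 and 2.38 FPKM with BQ788 and 2.51, 3.15 and 2.02 FPKM in controls. BQ788 replicate 1 and control replicate 2 were the high libraries, and the groups overlapped. Its log2 fold change of 0.09 turned to -0.03 without BQ788 replicate 1 and to -0.02 without control replicate 3. ORC1, a subunit of the origin recognition complex, was at 0.675, 0.501 and 0.595 FPKM with BQ788 and 0.675, 0.922 and 0.581 FPKM in controls. CDC6, its partner in loading, had 8 to 21 reads and was at 0.583, 0.378 and 0.381 FPKM with BQ788 and 0.361, 0.628 and 0.248 FPKM in controls. Neither separated the groups. MCM10, a factor of helicase activation, was at 0.654, 0.768 and 0.703 FPKM with BQ788 and 0.563, 0.562 and 0.541 FPKM in controls. All 3 BQ788 libraries were above the controls on 37 to 56 reads.

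At the fork, PCNA and FEN1, the nuclease that trims Okazaki fragment flaps, were higher in every BQ788 library without passing the threshold. PCNA (chromosome 22, 388903 to 392002) was at 66.8, 72.9 and 70.4 FPKM with BQ788 and 61.8, 62.1 and 60.1 FPKM in controls. With 1258 to 1626 reads per library its 95% interval was narrow, 0.05 to 0.32 around a log2 fold change of 0.19 (limma adjusted p = 0.121, 0.04995 without BQ788 replicate 1 and 0.222 to 0.330 with any other library left out). FEN1 (chromosome 5, 448016 to 450700) was at 8.47, 8.35 and 8.77 FPKM with BQ788 and 6.54, 7.18 and 7.07 FPKM in controls. Its libraries within a group lay close together, and the log2 fold change was 0.26 (SE 0.07, limma adjusted p = 0.0862).

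The clamp loader, polymerase and primase genes did not pass either. The loader subunit RFC3 averaged 2.17 ± 0.315 FPKM with BQ788 and 1.82 ± 0.151 FPKM in controls, and RFC4 averaged 13.7 ± 0.666 with BQ788 and 13.4 ± 0.806 FPKM in controls. RFC3 was higher in each BQ788 library, by little, and RFC4 overlapped. POLA1, the catalytic subunit of DNA polymerase alpha, averaged 4.93 ± 0.375 FPKM with BQ788 and 4.69 ± 0.334 FPKM in controls, and its groups overlapped. PRIM1, the primase that lays down RNA primers (chromosome 34, 1561390 to 1564116), was at 8.32, 5.77 and 5.04 FPKM with BQ788 and 8.01, 9.23 and 7.54 FPKM in controls. BQ788 replicates 2 and 3 were below every control, whereas BQ788 replicate 1 lay among them. The log2 fold change of -0.35 (SE 0.17) had a limma adjusted p of 0.273, and without BQ788 replicate 1 it was -0.53 with an adjusted p of 0.0358. Without BQ788 replicate 3 it was -0.22, and with any library but BQ788 replicate 1 left out the limma adjusted p lay between 0.343 and 0.543.

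Nucleotide supply held the largest difference of all members. RRM2, the small subunit of ribonucleotide reductase (chromosome 3, 96206986 to 96212057), is known to be made mainly in S phase. It was at 12.7, 19.8 and 20.1 FPKM with BQ788 and 6.48, 8.94 and 9.996 FPKM in controls. Each BQ788 library exceeded every control, but both groups were spread widely. Means differed 2.07-fold (log2 fold change 0.96, SE 0.21, limma adjusted p = 0.0665, and 0.0523 by limma voom), and the limma adjusted p was 0.0230 without BQ788 replicate 1 and 0.135 to 0.221 with any other library left out. RRM1 (chromosome 1, 195882335 to 195900384), the larger partner of RRM2, was at 32.1, 40.1 and 41.0 FPKM with BQ788 and 41.5, 41.2 and 42.1 FPKM in controls. The controls were nearly equal and BQ788 replicate 1 alone was clearly lower (log2 fold change -0.15, limma adjusted p = 0.424). Without that library the log2 fold change was -0.036.

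The 2 subunits form 1 enzyme, and their ratio, also computed after the values were seen, separated the groups. RRM2 over RRM1 was 0.397, 0.494 and 0.491 with BQ788 and 0.156, 0.217 and 0.238 in controls. The lowest BQ788 library stood well above the highest control. As every BQ788 library was above the controls for RRM2 and below them for RRM1, the ratio had to separate the groups. It is given as a description, with no test. TK1, which salvages thymidine in S phase, was at 5.78, 7.29 and 6.05 FPKM with BQ788 and 4.17, 6.01 and 4.23 FPKM in controls. Replicate 2 was the highest library of each group, and control replicate 2 reached into the BQ788 range (log2 fold change 0.35, limma adjusted p = 0.214). TYMS, thymidylate synthase, averaged 2.16 ± 0.198 FPKM with BQ788 and 1.86 ± 0.256 FPKM in controls and overlapped. It lies over YES1, a gene at 46.6 FPKM on the opposite strand, for 239 bases.

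**Figure D3:**
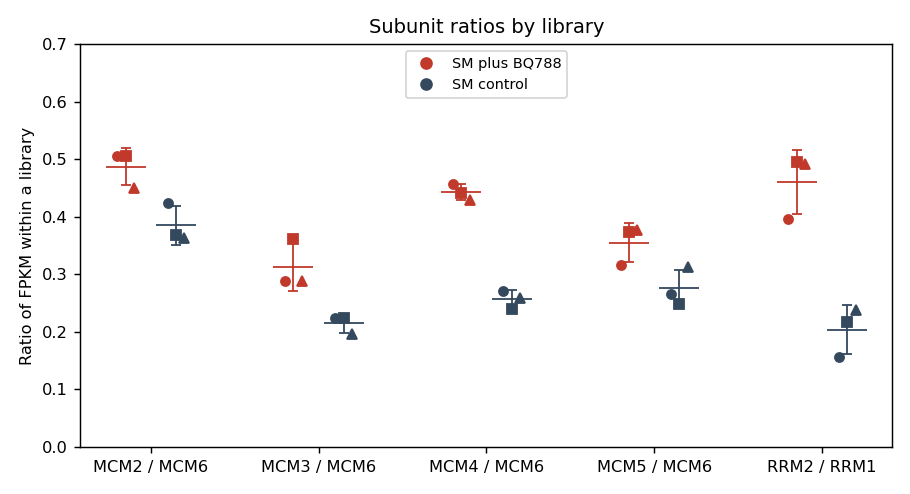
Ratio of FPKM values within each library for MCM2 to MCM5 over MCM6 and for RRM2 over RRM1, with SM plus BQ788 in red left of SM controls in dark blue, a symbol per replicate, and lines for mean and SD. In all 5 ratios every BQ788 library lies above every control. For MCM4 over MCM6 and RRM2 over RRM1 this had to follow from the values of the single genes.

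Among genes that rebuild chromatin behind the fork, UHRF1 and CDCA7 were higher in each BQ788 library. CDCA7, known from mammals to recruit the remodeller HELLS to heterochromatin (chromosome 7, 16955579 to 16963453), was at 1.72, 2.25 and 2.28 FPKM with BQ788 and 1.29, 1.44 and 1.12 FPKM in controls. The log2 fold change was 0.43 (SE 0.11, limma adjusted p = 0.0967, 0.0377 without BQ788 replicate 1 and 0.208 to 0.282 with any other library left out). UHRF1, which guides maintenance of DNA methylation (chromosome 28, 5277655 to 5308196), was at 2.31, 3.01 and 2.15 FPKM with BQ788 and 1.58, 2.00 and 1.40 FPKM in controls. Again replicate 2 was the highest of each group, and the groups did not overlap (log2 fold change 0.39, SE 0.13, limma adjusted p = 0.156). CHAF1B, a subunit of the histone chaperone CAF-1, was at 2.38, 2.90 and 2.48 FPKM with BQ788 and 2.21, 2.50 and 2.28 FPKM in controls. Those values overlapped, with a log2 fold change of 0.11 and a 95% interval from -0.12 to 0.33.

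Regulators of the G1-S transition had a median log2 fold change of 0.06 over 7 tested genes, 5 of them above 0, where all genes tested gave 53.5%. E2F7, a repressor that limits E2F targets (chromosome 1, 38383735 to 38402631), was at 3.40, 3.43 and 3.06 FPKM with BQ788 and 2.40, 2.87 and 2.51 FPKM in controls. Its groups were separated, with BQ788 higher (log2 fold change 0.26, SE 0.09, limma adjusted p = 0.152). That makes 1 of 7 tested genes of this role, or 14.3%, near the 15.2% of all genes tested. E2F1, the classical activator (chromosome 20, 2516140 to 2519952), was at 4.97, 6.41 and 5.49 FPKM with BQ788 and 3.83, 5.29 and 4.11 FPKM in controls. Control replicate 2 overlapped the BQ788 range (log2 fold change 0.30, limma adjusted p = 0.241). E2F8, the relative of E2F7, was at 1.66, 1.35 and 0.738 FPKM with BQ788 and 1.33, 1.48 and 0.925 FPKM in controls, so replicate 3 was the lowest of each group. Its mean log2 fold change of -0.01 was 0.04 under quantile normalization.

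Cyclin E and its kinase showed no difference beyond the spread. CCNE1 (chromosome 11, 8093097 to 8106100) was at 6.51, 6.37 and 7.24 FPKM with BQ788 and 7.06, 5.96 and 6.24 FPKM in controls, and its 95% interval ran from -0.15 to 0.26 on the log2 scale. CDK2 (chromosome 34, 1344337 to 1346999) was at 11.8, 11.6 and 13.3 FPKM with BQ788 and 10.3, 13.3 and 11.2 FPKM in controls, with an interval from -0.18 to 0.32. CCNE2, the second cyclin E gene, held 9 to 30 reads and stayed between 0.0483 and 0.142 FPKM. It overlaps TP53INP1, a gene at 13.9 FPKM on the same strand, for 2356 bases, so even these reads are uncertain. The phosphatase CDC25A, which activates CDK2, averaged 4.53 ± 0.467 FPKM with BQ788 and 4.75 ± 0.308 FPKM in controls. The whole span of CDC25A lies within that of GIMAP7L5 on the same strand, so the sharing of reads between them is uncertain. DTL, the adaptor that marks CDT1 for destruction, averaged 1.04 ± 0.113 FPKM with BQ788 and 1.03 ± 0.0820 FPKM in controls. DTL had a log2 fold change of 0.00 under the authors' scaling and -0.00208 under median-of-ratios scaling.

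Members also differed among the libraries of a group. Of the 33, 28 had their highest value in a BQ788 library and 26 their lowest in a control, against 59.7% and 44.1% of all genes tested. BQ788 replicate 2 was the highest of the 6 libraries for 16 members, or 48.5%, against 14.8% of all genes. Within the controls, replicate 2 was the highest for 20 members, or 60.6% against 29.6% of all genes, and replicate 3 the lowest for 18, or 54.5% against 38.0%. The 33 include 5 genes below the minimum level that all genes tested met. Over the 28 members tested, BQ788 replicate 2 was the highest of the 6 libraries for 15, or 53.6%. Within the controls, replicate 2 was then the highest for 18, or 64.3%, and replicate 3 the lowest for 15, or 53.6%. BQ788 replicate 1 was the lowest of its group for 15 of the 33 members, or 45.5%, and for 14 of the 28 tested, or 50.0%, against 41.4% of all genes. That library also had the highest sum of fibroblast markers, 380.1 FPKM against 177.6 and 227.7 FPKM in BQ788 replicates 2 and 3, and the lowest sum of supporting cell markers, 3017 against 3654 and 4237 FPKM. TECTB and GJB6 hold most of that sum, while SOX2 stood at 61.0 FPKM in BQ788 replicate 1 against 35.5 and 29.3 FPKM in BQ788 replicates 2 and 3, and HES5 at 16.1 against 3.93 and 1.90 FPKM. Among the BQ788 libraries, every leukocyte marker but CD74 was highest in replicate 1, as for CSF1R at 5.06 against 2.45 and 2.42 FPKM. CD74 was lowest there, at 23.4 against 38.2 and 51.6 FPKM. The part of these cells in the spread was not tested. Without BQ788 replicate 1, 7 members passed in limma, namely MCM4, PCNA, RRM2, CDCA7, GINS2 and CDC45 as higher and PRIM1 as lower. Of these, GINS2 and CDC45 had control means under the minimum, which leaves 5 without them. The share of all genes called was then 11.1%, and 5.28% were called higher. Leaving out any other library gave 0 members.

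**Figure D4:**
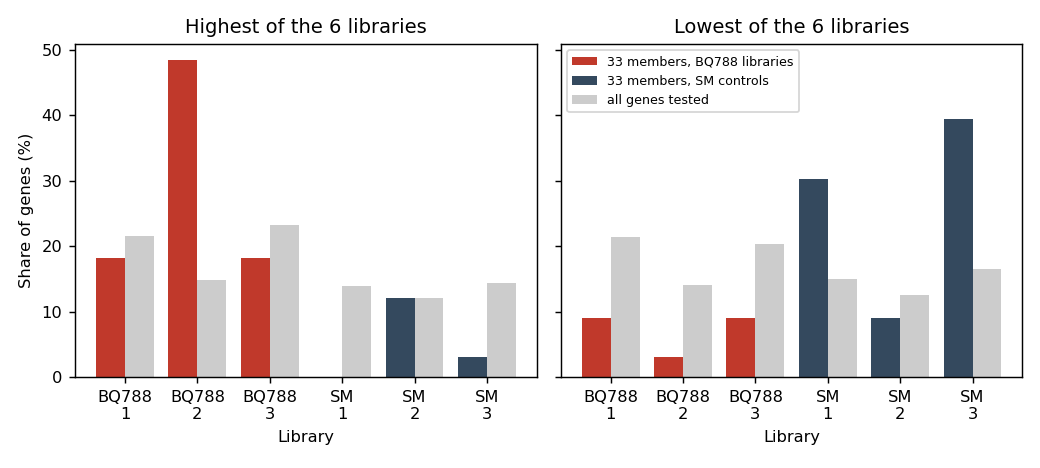
Share of genes, in percent, for which each library was the highest (left) or lowest (right) of the 6, for the 33 members (red for SM plus BQ788, dark blue for SM controls) and for all genes tested (grey). BQ788 replicate 2 holds the highest value for 48.5% of members, and SM control replicates 1 and 3 hold most of the lowest values.

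Other genes of the replication machinery, taken from a list of 60 with 54 rows and 46 tested, were mostly higher as well. Here 40 were above 0 and 6 below, where 53.5% of all genes tested were above 0. Their median log2 fold change was 0.13, and 1 passed, higher, against 0.751% of all genes called higher. Of the 46, 2 passed the minimum level only through the BQ788 libraries, TIMELESS and ATAD5, both above 0. Without them the median over 44 genes was 0.13. POLA2, the accessory subunit of DNA polymerase alpha, rose to 12.4, 11.0 and 11.0 FPKM with BQ788, against 8.33, 7.70 and 8.53 FPKM in controls (log2 fold change 0.44, limma adjusted p = 0.0415). Its call was lost without any 1 of the controls or BQ788 replicates 2 and 3, at adjusted p-values from 0.0929 to 0.167, and by limma voom at 0.0919. POLA2 works in 1 complex with POLA1 and PRIM1, which did not pass. RRM2B, a stress-induced small subunit of ribonucleotide reductase, was at 7.16 ± 0.397 FPKM with BQ788 and 5.32 ± 0.292 FPKM in controls (limma adjusted p = 0.0551, and 0.0438 by limma voom). MCM8, a helicase used in recombination repair, was at 4.17 ± 0.0286 with BQ788 and 3.25 ± 0.0908 FPKM in controls (limma adjusted p = 0.0802). RPA3, a subunit of the protein that coats single-stranded DNA, was at 19.95 ± 1.70 with BQ788 and 15.96 ± 0.209 FPKM in controls (limma adjusted p = 0.0847). All 3 had groups that did not overlap, as had 16 of the 46 with BQ788 higher, where all genes tested gave 15.2%. The 3 were named for their low p, which goes with separated groups, so their separation adds no support.

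Other E2F, RB and G1-S genes, 39 names with 37 rows and 34 tested, went both ways. Their median log2 fold change was 0.04, with 20 above 0 and 14 below, where 53.5% of all genes tested were above 0. In limma or limma voom 0 passed. At an unadjusted p of 0.05, 4 were higher and 2 lower, where all genes gave 10.8% and 11.9%. LIN52, a subunit of the MuvB complex that acts with RB relatives, was at 18.4 ± 0.607 FPKM with BQ788 and 14.2 ± 1.18 FPKM in controls (limma adjusted p = 0.0620). ATM, the kinase that senses DNA breaks, was at 3.36 ± 0.111 with BQ788 and 2.82 ± 0.0788 FPKM in controls (limma adjusted p = 0.185). CDK6, partner of the D cyclins, was at 5.90 ± 0.259 with BQ788 and 6.82 ± 0.254 FPKM in controls, and MYC, a growth factor-induced transcription factor, at 53.9 ± 3.30 with BQ788 and 63.1 ± 5.94 FPKM in controls. Both were lower in every BQ788 library and neither passed (limma adjusted p = 0.183 and 0.190). In this list the groups did not overlap in 5 of 34 genes that were higher and 3 that were lower. All genes tested gave 15.2% and 14.1%.

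Genes of mitosis, which follows S phase, lay further above the controls by their median. Of 50 names, 43 had a row and 39 were tested, with a median log2 fold change of 0.41. Above 0 were 38 of the 39, against 53.5% of all genes tested. At an unadjusted p of 0.05, 27 were higher and 1 lower, where all genes gave 10.8% and 11.9%. Past the threshold were 3, all higher, against 0.751% of all genes called higher. CENPM, a centromere protein, rose to 2.85 ± 0.186 FPKM with BQ788, against 1.47 ± 0.285 FPKM in controls (limma adjusted p = 0.0415). KIF23, a kinesin of cytokinesis, rose to 2.26 ± 0.220 FPKM with BQ788, against 1.28 ± 0.120 FPKM in controls (limma adjusted p = 0.0459). NCAPD2, a condensin subunit, rose to 5.76 ± 0.108 FPKM with BQ788, against 4.32 ± 0.109 FPKM in controls (limma adjusted p = 0.0473). PBK, a mitotic kinase, was at 9.47 ± 1.75 with BQ788 and 5.23 ± 0.767 FPKM in controls (limma adjusted p = 0.0547). The calls of CENPM, KIF23 and NCAPD2 were lost when any library but BQ788 replicate 1 was left out. Of the mitosis genes tested, 7 passed the minimum level only through the BQ788 libraries. Without them 21 of 32 were higher and 1 lower at an unadjusted p of 0.05, and the median log2 fold change was 0.40. TOP2A stands in both the mitosis and the other replication list. The difference between the lists was not tested.

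**Figure D5:**
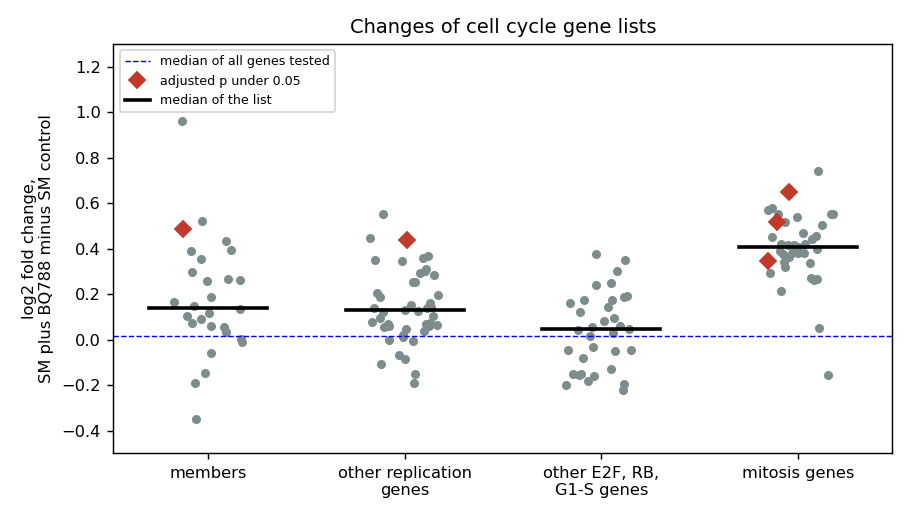
Difference in log2(FPKM + 1) between SM plus BQ788 and SM control for each tested gene of the members, other replication genes, other E2F, RB and G1-S genes, and mitosis genes. Black bars mark medians of 0.14, 0.13, 0.04 and 0.41, the dashed line the median of all genes tested (0.02), and diamonds the genes with an adjusted p under 0.05.

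The members share neither a chromosome nor an unusual transcript length. They lie on 16 chromosomes, with 7 on chromosome 1 and 0 on Z or W, and their median annotated length was 3264 bases against 3435 bases for all genes tested. PRIM1 and CDK2 lie on the same small chromosome, 34, and CDT1, GINS2 and CCNE1 share chromosome 11. Overlap with another annotated gene was found for 9 of the 33, including MCM4 (320 bases of LOC124417695, at 0.0211 FPKM) and UHRF1 (9052 bases of PLIN3, at 0.194 FPKM), whose partners were nearly silent. Not all partners were: CCNE2 overlaps TP53INP1 (2356 bases, at 13.9 FPKM) and INTS8 (125 bases, at 17.2 FPKM).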

How the data were processed

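The authors deposited 1 table of FPKM values per gene for 6 RNA-seq libraries. Per the labels' protocols, RNA (400 ng) was taken from epithelia freed with 500 µg/ml thermolysin, with a NEBNext Ultra II library kit not stated to mark strand. The submitters' processing notes name fastp and the genome build GRCg7b. The aligner and counter are not given in these sources. FPKM times annotated length gave whole reads within 0.01 for all values, so depth per library could be recovered. A value of 3 reads, the limit for a count of 0, equals 0.169 to 0.193 FPKM in a gene of 1 kb, and counting error only is covered by it.

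Genes averaging 1 FPKM or more across the 6 libraries were tested as log2(FPKM + 1) with limma 3.58.1 (trended eBayes) in R 4.3.3, SM plus BQ788 against SM control, with Benjamini-Hochberg adjustment over all genes tested and a threshold of 0.05. The fit was checked on simulated data with independent noise in each library and changes larger than those of the members. That check does not cover changes of the members' size. Alternatives were pseudocounts of 0.1 and 0.5, no minimum, a minimum of 5 FPKM, other scalings, other eBayes settings, limma voom on recovered reads, a replicate block, and each library left out. Counts without genes whose control mean was under 1 FPKM were added after seeing the data. Members and gene lists were chosen with earlier results of these data known. Library values are given for members past the threshold, the 3 of each role with the lowest p, well-known members and those the text turns on. Outside the members, the 4 genes of each list with the lowest p are named. Chromosome positions are those of GRCg7b, from RefSeq.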

Additional observations from a re-analysis of the deposited data

How the results depend on the processing

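The median log2 fold change of the members stayed between 0.11 and 0.20 in every alternative run. Counts of calls depended on the settings. In all genes, 68 passed with no minimum level, 220 with plain totals of recovered reads and 749 with a replicate block. Leaving out 1 library gave 1 to 1311, the highest without BQ788 replicate 1. Among members, 0 passed with no minimum, with plain totals and by limma voom, 2 (MCM4 and RRM2) passed with the replicate block, and 0 to 7 passed with 1 library left out. Other replication genes gave 0 with no minimum, 0 with plain totals, 4 with the block and 0 to 6 with a library left out. Other E2F, RB and G1-S genes gave 1 with the block and 0 to 1 with a library left out. Mitosis genes gave 0 with no minimum, 0 with a minimum of 5 FPKM, 0 with plain totals, 13 with the block and 0 to 11 with a library left out. The cause of these shifts was not tested. The labels do not say whether same-numbered libraries are pairs. Deviations from the group means correlated at 0.50, 0.07 and 0.57 for same-numbered libraries and from -0.53 to 0.13 for the others. BQ788 replicate 2 correlated at 0.13 with control replicate 3 and at 0.07 with control replicate 2. Whether the replicate numbers mark pairs was not settled, and the main fit has no block. The direction turned for a few members near 0. E2F8 was at 0.043 under quantile normalization. DTL was at -0.00208 under median-of-ratios scaling, -0.000718 with plain totals and -0.00292 by limma voom. With a library left out, CDT1 ran from -0.032 to 0.21, RFC4 from -0.011 to 0.069, E2F8 from -0.14 to 0.16, DTL from -0.039 to 0.038 and CDK2 from -0.000819 to 0.17. The ratios kept their direction with each library left out, an alternative chosen after seeing the data. For every ratio but POLA1 over PRIM1 the groups were separated, so the direction could not turn. The log2 difference of POLA1 over PRIM1 ran from 0.36 to 0.71. CDC6, GINS1 and CCNE2 rest on 8 to 30 reads per library, where counting error alone reaches 35.4% of the level.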
